A study of Gallus gallus with 6 samples.

Results

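The wild type DT40 transcriptome was described from 3 of the 6 libraries of the series, namely every library whose genotype label reads wild type. DT40 is a chicken B cell line derived from a bursal lymphoma induced by avian leukosis virus. The series sequenced total RNA of wild type cells, named Clone 18, and of Bach2 knockout cells, whose libraries were not used here. Per the labels' protocols, each wild type library came from an independent culture grown in serum-containing RPMI medium, and libraries were read as paired ends on an Illumina instrument. All 3 cultures carry the name of 1 clone and are unmanipulated as far as the labels say. The spread below is therefore a spread between cultures of that clone. Each gene has a count of reads in each library and a level in RPKM, the usual unit of reads scaled by gene length and by library total. Levels of different genes were compared only on the RPKM scale, and a gene was called expressed at 1 RPKM or more in every library.

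Chicken B cells mature in the bursa of Fabricius, where they diversify rearranged immunoglobulin genes by gene conversion, a form of homologous recombination that copies stretches from nearby variable pseudogenes. DT40 cells keep this activity in culture, and their efficient homologous recombination has made the line a standard system for gene targeting and for the genetics of DNA repair. B cell identity in vertebrates rests on a network of transcription factors that includes PAX5, EBF1 and the E proteins, while PRDM1 (Blimp-1) and XBP1 drive the later change to antibody-secreting plasma cells.

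The libraries held 20647281, 13878690 and 8999010 counts in replicates 1, 2 and 3. Genes with a count numbered 11171, 11093 and 10787. At the depth of the smallest library 10735, 10821 and 10787 would be expected, so that the difference in counted genes went with depth. The chi-square per degree of freedom between the counts of 2 libraries was highest for replicates 1 and 2, at 8.003. It was 5.87 for replicates 1 and 3 and 3.10 for replicates 2 and 3. No pair was therefore the same library under different names. This statistic grows with depth, and its order here followed the total counts of the pairs. The spread beyond counting error, given below, was lowest when replicate 1 was left out. With 3 cultures of 1 group no test was run, since an exact two-sided sign permutation test over 3 libraries cannot go below p = 0.25. Comparisons between genes are given as ratios within each library and by whether their ranges overlapped.

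Of 17108 genes in the tables, 8314 (48.6%) were expressed. A further 3528 had a count but stayed under 1 RPKM in at least 1 library, and 5266 (30.8%) had no count in any library. Over protein-coding RefSeq genes alone, 57.8% were expressed. A gene with no count may have had up to 3 counts over the libraries, or 0.0689 CPM (counts scaled to the library totals); this limit covers counting error only. The expressed genes fell into 2883 whose mean lay between 1 and 10 RPKM, 4464 between 10 and 100 RPKM and 967 at 100 RPKM or more. The 967 most abundant took 58.2% of all counts, and 50% of the counts of a library came from its 489, 479 and 477 most abundant genes in replicates 1, 2 and 3. The number of genes at 1 RPKM or more was 8549, 8543 and 8530 in replicates 1, 2 and 3.

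Transcripts of the mitochondrial genome, which encodes 13 proteins of the respiratory chain and ATP synthase, included the most abundant RNAs measured. COX1, the catalytic subunit of cytochrome c oxidase, stood first of all genes at 17240, 15854 and 17151 RPKM in replicates 1, 2 and 3 (16748 ± 776 RPKM, SD, n = 3). ATP6 and ATP8, subunits of ATP synthase, averaged 13248 ± 607 and 11481 ± 1273 RPKM, and the oxidase subunits COX2 and COX3 averaged 11676 ± 1292 and 10524 ± 96.4 RPKM (SD, n = 3). The ranges of ATP8, COX2 and COX3 overlapped, so that their order among themselves is not settled by these libraries. CYTB, the cytochrome of complex III, averaged 7864 ± 882 RPKM.

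The NADH dehydrogenase subunits spanned the rest of the mitochondrial range. ND1 averaged 9952 ± 680 RPKM, ND4 5732 ± 363, ND5 5413 ± 332, ND2 5055 ± 477, ND4L 3851 ± 300 and ND3 2354 ± 110 RPKM (SD, n = 3). ND6 was lowest, at 738, 729 and 760 RPKM in replicates 1, 2 and 3, and still ranked 108th of all genes. COX1 exceeded ND6 22.6 ± 0.802-fold (SD over 3 libraries), and 6 of 12 neighbours in the order of the 13 genes overlapped in range.

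**Figure D1:**
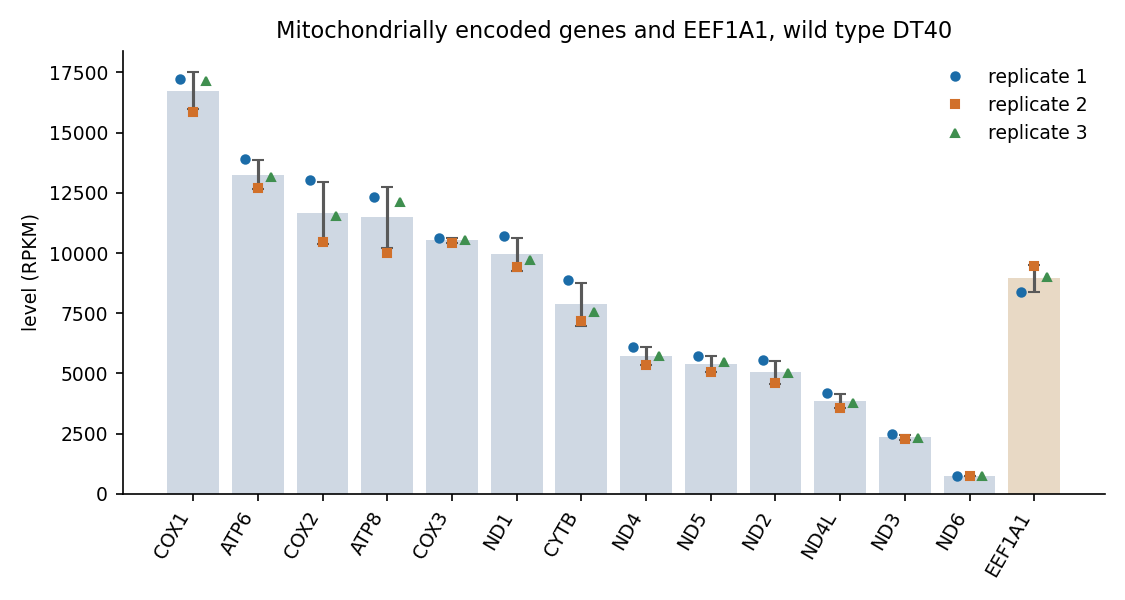
Levels of the 13 mitochondrially encoded genes and of EEF1A1, the nuclear gene with a symbol that had the highest level, in RPKM on a linear axis; bars are means over 3 wild type libraries, error bars the SD, and points the single libraries. COX1 averages 16748 RPKM and ND6 742 RPKM, and replicate 2 is the lowest library for all 13 mitochondrial genes.

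The 13 protein-coding mitochondrial genes, without the ribosomal RNAs MT-RNR1 and MT-RNR2, which were not analysed here, together took 10.18% of the counts of replicate 1 (exact 95% binomial interval 10.17 to 10.20), 9.05% of replicate 2 (9.04 to 9.07) and 9.62% of replicate 3 (9.61 to 9.64), or 9.62 ± 0.565% (SD, n = 3). The intervals cover counting error only, and did not overlap between libraries. The 3 libraries differed in these genes as a block: 12 of the 13 were highest in replicate 1, and all 13 were lowest in replicate 2. Of all 5345 genes with at least 10 RPKM on average and 300 counts, 2172 were highest in replicate 1 and 1628 lowest in replicate 2. As a share of summed RPKM, which takes out gene length, the 13 genes held 17.3%, 15.3% and 16.7% in replicates 1, 2 and 3, a mean of 16.4%.

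The translation machinery and abundant cytosolic proteins led the nuclear genes with a symbol, and some of them ranked among the mitochondrial genes. EEF1A1, the elongation factor that brings aminoacyl-tRNA to the ribosome, was the most abundant nuclear gene with a symbol. It had 8368, 9467 and 9008 RPKM in replicates 1, 2 and 3 and 1.49 ± 0.0955% of all counts (SD, n = 3). By mean, EEF1A1 stood 8th of all genes, above CYTB, and RPSA and PPIA stood above ND4L. The other nuclear genes among the 20 highest with a symbol were RPSA, RPS24, RPS25, RPLP0 and RPLP1 of the ribosome, the prolyl isomerase PPIA, the cytoskeletal ACTB and the nucleolar chaperone NPM1, with means of 2854 (RPLP1) to 4926 RPKM (RPSA). NCL, the nucleolar protein nucleolin, joined EEF1A1 and 8 mitochondrial genes among the 10 with the largest share of counts, at 0.707 ± 0.0424% (SD, n = 3). These 10 genes took 11.2%, 10.5% and 10.9% of the counts in replicates 1, 2 and 3; ranked by RPKM instead, the top 10 held 16.9% of summed RPKM.

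Of 66 ribosomal protein rows, 64 were expressed, against 48.6% of all genes and 57.8% of protein-coding RefSeq genes. All 64 were at 100 RPKM or more in every library. The 66 rows had a median of 1441 RPKM against 0.967 RPKM over all genes. Ribosomal protein genes took 7.25%, 7.77% and 7.41% of counts in replicates 1, 2 and 3 (7.48 ± 0.268%, SD, n = 3) and 15.8% of summed RPKM. Replicate 2 was the highest library for 57 of these 64 genes and replicate 1 the lowest for 39, the reverse of the mitochondrial genes. Over all 5345 genes with enough counts, replicate 2 was the highest for 1653 and replicate 1 the lowest for 1915. The rows without a count were RPS26 and a second row under the symbol RPL34, whose other row held 20478 counts. Single levels are uncertain where near-identical copies share reads.

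B cell transcription factors made up a well expressed group: 29 of 36 listed factors were matched to a row. Of these, 26 (89.7%) were expressed, 19 at 10 RPKM or more in every library. The expressed share was 48.6% over all genes and 57.8% over protein-coding RefSeq genes. The rest of the list was not analysed here. The matched factors had a median level of 27.6 RPKM. POU2AF1, the B cell coactivator of OCT factors, was highest with 286, 250 and 265 RPKM in replicates 1, 2 and 3. TCF12, an E protein, followed at 173 ± 7.5 RPKM and IRF8, an interferon regulatory factor of B and myeloid cells, at 155 ± 3.29 RPKM (SD, n = 3). The ranges of these factors did not overlap, so their order held in every library.

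PAX5, the factor that fixes B cell identity, had 102, 105 and 104 RPKM in replicates 1, 2 and 3 (104 ± 1.64, SD, n = 3) and was among the steadiest of the group. EBF1, which acts together with PAX5 in early B cells, averaged 27.6 ± 0.910 RPKM, so that PAX5 was 3.76 ± 0.181-fold higher. SPI1 (PU.1), at 90.6 ± 1.43 RPKM, and ETS1, at 83.8 ± 2.23 RPKM, are ETS family factors of blood cells. These levels differed between cultures by a few percent.

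Among the E proteins and their inhibitors the levels were uneven. TCF3 (E2A) averaged 35.9 ± 2.90 RPKM and TCF4 (E2-2) only 1.97 ± 0.205 RPKM, so that TCF12 exceeded them 4.84 ± 0.228-fold and 88.8 ± 13.5-fold. The ID proteins bind E proteins and keep them from DNA; ID2 averaged 19.5 ± 1.19, ID3 9.21 ± 2.43 and ID1 3.72 ± 1.47 RPKM (SD, n = 3). ID3 was low in replicate 1 (6.67 RPKM, against 11.5 and 9.46 in replicates 2 and 3), whereas ID1 was high there (5.38, against 2.57 and 3.22 RPKM).

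The Ikaros family was represented by IKZF3 (Aiolos) at 75.9 ± 7.75 RPKM and IKZF1 (Ikaros) at 36.1 ± 2.52 RPKM, while IKZF2 (Helios) had only 9 counts in all. BCL6, the repressor of germinal centre B cells, had the largest coefficient of variation of the factors whose mean was over 20 RPKM (21.3%), with 69.9 RPKM in replicate 1 against 47.8 and 50.9 in replicates 2 and 3. IRF4, which acts in activated B cells and plasma cells, averaged 36.5 ± 3.86 RPKM, and IRF8 exceeded it 4.28 ± 0.369-fold. BACH2, a repressor of B cells and the gene deleted in the other genotype of the series, was among the lowest expressed factors, at 2.67, 2.55 and 2.45 RPKM (2.56 ± 0.114, SD, n = 3) and 276 counts in all.

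The remaining factors filled the range between. REL, an NF-kB subunit, averaged 40.4 RPKM, BCL11A 32.7, FOXO1 30.1, RUNX1 19.7, the NF-kB precursor NFKB1 19.4, MYB 14.0, NFATC1 11.1, POU2F1 (OCT1) 7.95 and RUNX3 1.60 RPKM. KLF2, a factor of resting lymphocytes, crossed the limit of 1 RPKM in replicate 3 only, and LEF1, a factor of early lymphocytes, had 3 counts in all. Of 28 neighbours in the order of the 29 factors, 12 overlapped in range, among them the run REL, IRF4, IKZF1, TCF3, BCL11A and FOXO1.

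The surface molecules of B cells also differed widely in level. Of 21 matched genes of the B cell receptor and its co-receptors, 15 (71.4%) were expressed. The share was 48.6% over all genes and 57.8% over protein-coding RefSeq genes. Of the others, 4 had counts below 1 RPKM in a library and 2, CD9 and CD86, had no count. BU-1, the alloantigen that marks chicken B cells, had 392, 423 and 435 RPKM in replicates 1, 2 and 3. CD79B, the signalling chain of the B cell receptor, had 433, 374 and 370 RPKM. The ranges of these highest genes overlapped, and their order was not the same in every library.

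CXCR5, the chemokine receptor that guides B cells into follicles, averaged 314 ± 30.4 RPKM. It exceeded CXCR4, which holds B cells in marrow and germinal centre dark zones in mammals, 15.4 ± 1.22-fold, and CCR7, which guides lymphocytes into the T cell zone, 581 ± 141-fold (SD over 3 libraries). CCR7 itself had 104 counts in all, so that the last ratio is imprecise. PTPRC (CD45), the phosphatase of all leukocytes, averaged 150 ± 4.06 RPKM.

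The survival cytokine BAFF (TNFSF13B) and receptors for it were expressed in these cultures. TNFSF13B had 52.3, 53.1 and 53.0 RPKM in replicates 1, 2 and 3, the receptor TACI (TNFRSF13B) 26.5, 21.5 and 18.8 RPKM and the BAFF receptor TNFRSF13C 16.8, 14.3 and 11.8 RPKM. Both receptors were highest in replicate 1, whereas the cytokine was steady. CD40, the receptor for T cell help, averaged 28.7 ± 0.754 RPKM, the tetraspanin CD81 52.4 ± 2.91 and the inhibitory lectin CD72 15.7 ± 2.80 RPKM (SD, n = 3).

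Lower levels were found for P2RY8 (11.6 RPKM), the costimulator CD80 (8.86), the sphingosine phosphate receptor S1PR1 (5.94) and CD5 (5.65 RPKM), an inhibitory co-receptor of T cells and some B cells. CD82, CCR7, FCRL2 and CD83 stayed under 1 RPKM in every library. CD80 thus had 341 counts in all and CD86, which binds the same receptors, had none. Over the list, 8 of 18 neighbours in the order of genes with a count overlapped in range.

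**Figure D2:**
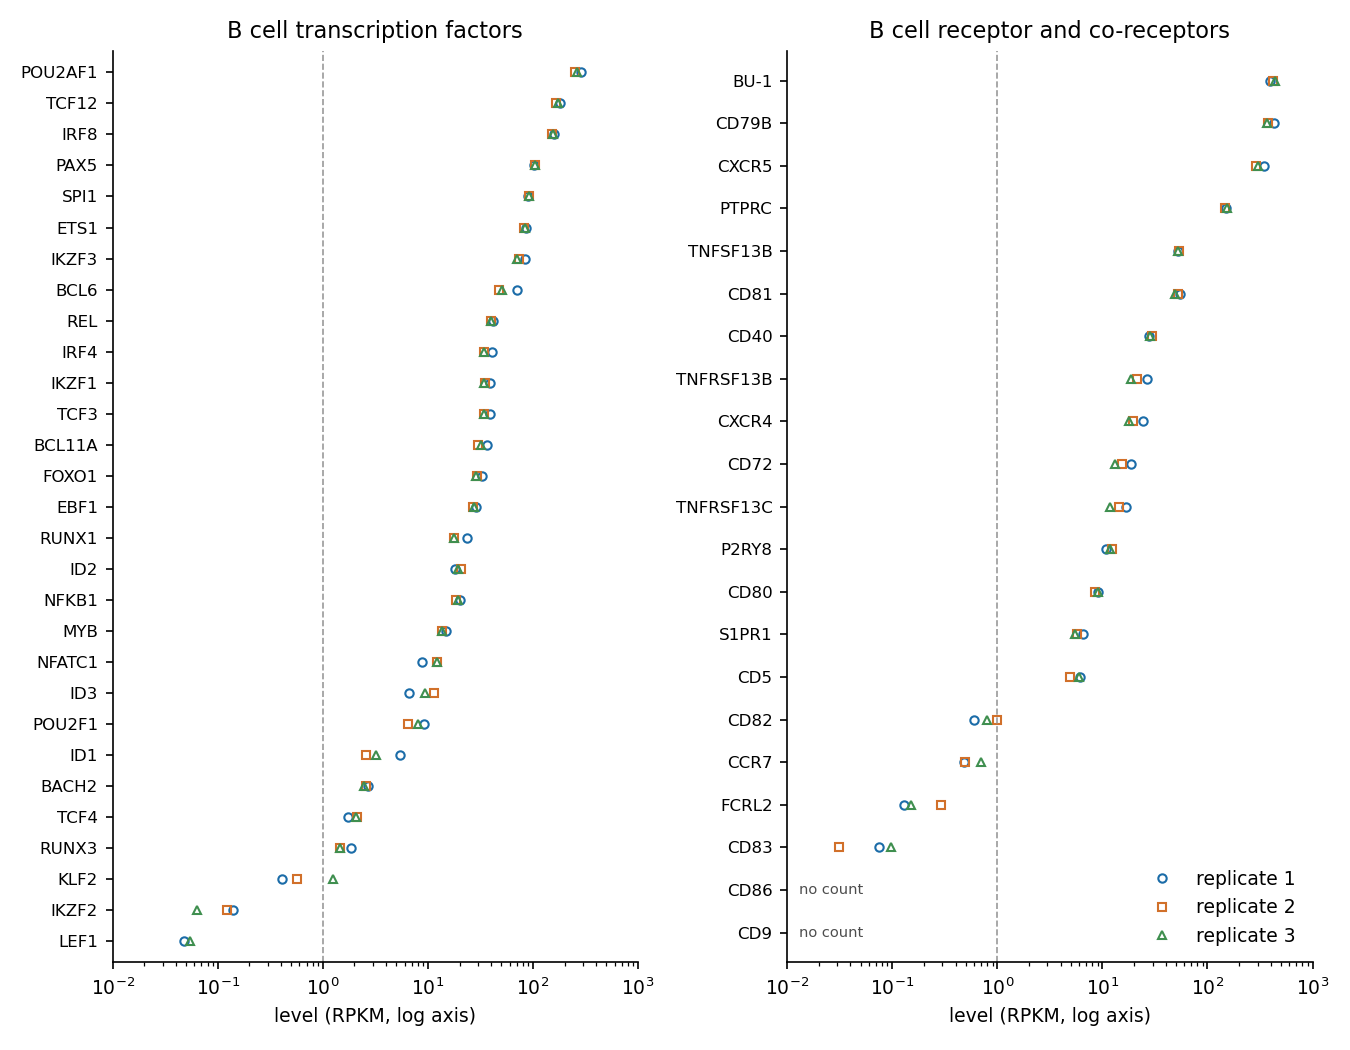
Levels of 29 B cell transcription factors and 21 B cell receptor and co-receptor genes in RPKM on a log axis; each symbol is 1 of the 3 wild type libraries and the dashed line marks 1 RPKM. A library at 0 is not drawn (LEF1 in replicate 2), and CD86 and CD9 had no count; BCL6, RUNX1 and ID1 show replicate 1 above the other libraries, and NFATC1 and ID3 show it below them.

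The relay from the B cell receptor into the cell was also largely present, with 30 of 35 matched signalling genes (85.7%) expressed. The share was 48.6% over all genes and 57.8% over protein-coding RefSeq genes. The adaptor DOK3 averaged 247 ± 22.2 RPKM, the adaptor GRB2 229 ± 7.88, the kinase BTK 213 ± 10.9, the protein kinase C isoform PRKCB 145 ± 6.07 and the linker BLNK 122 ± 1.28 RPKM (SD, n = 3). The receptor-proximal kinase SYK was lower, at 20.8, 21.0 and 22.9 RPKM, and LYN, the SRC family kinase upstream of it, was 4.83 ± 0.182-fold higher than SYK. Of the other SRC family members listed, FYN, LCK, SRC and BLK each had between 7 and 29 counts in all. Of the phospholipases that open the calcium pathway, PLCG2 averaged 47.4 ± 2.31 RPKM while PLCG1 had 12 counts in all.

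The label of the line was set beside 9 B cell markers, of which IGLL1 was not analysed here. The markers belong to lists chosen with earlier results of these data known, so they give no independent check of the label. The other 8 (PAX5, EBF1, CD79B, BLNK, BTK, SYK, CD40 and BU-1) were all expressed, with means between 21.6 (SYK) and 417 RPKM (BU-1). Some other genes of the B cell lists were lower than these, such as CD72 (15.7 RPKM) and FCRL2 (0.190 RPKM), and CD9 and CD86 had no count. The genes that encode the immunoglobulin chains themselves were not analysed here, and neither was RAG1. Of the 7 matched genes of immunoglobulin and antigen receptor assembly, HMGB1 (508 ± 18.7 RPKM) and HMGB2 (133 ± 7.85 RPKM) are chromatin proteins that assist the RAG recombinase. VPREB3, known in mouse to bind newly made immunoglobulin heavy chains, had 510 RPKM in replicate 1 against 376 in replicates 2 and 3 each. RAG2, a subunit of the recombinase, was expressed at a low level, at 2.42, 1.81 and 1.77 RPKM. DNTT, which adds untemplated nucleotides at joins, had 48 counts in all, and PIGR, the epithelial transporter of polymeric antibody, 1 count.

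Several genes of the plasma cell list were abundant, while the regulator PRDM1 had few counts. MZB1, a chaperone of antibody assembly, averaged 549 ± 21.1 RPKM, SSR1 of the translocon complex 346 ± 13.5, the joining chain IGJ 123 ± 15.2 and the factor XBP1 114 ± 5.15 RPKM (SD, n = 3). PRDM1, in contrast, had 0.0835, 0.0990 and 0.0765 RPKM in replicates 1, 2 and 3, from 22 counts in all. XBP1 exceeded PRDM1 1329 ± 171-fold. Counting error alone gives PRDM1 a coefficient of variation of 39.2%, so that the ratio is less precise than its SD. The plasma cell surface marker SDC1 (CD138) averaged 8.81 ± 0.515 RPKM, and CD38 had 6 counts.

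The other members of the plasma cell list, which shares POU2AF1 and IGJ with lists above, were intermediate. The disulfide isomerase TXNDC5 averaged 51.8 RPKM, the elongation cofactor EAF2 41.3 and TXNDC11 26.5 RPKM. ELL2, an elongation factor used in antibody secretion, stayed under 1 RPKM in 2 of 3 libraries at 0.617, 0.312 and 1.07 RPKM. In all, 9 of 12 matched members (75.0%) were expressed, against 48.6% of all genes and 57.8% of protein-coding RefSeq genes.

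**Figure D3:**
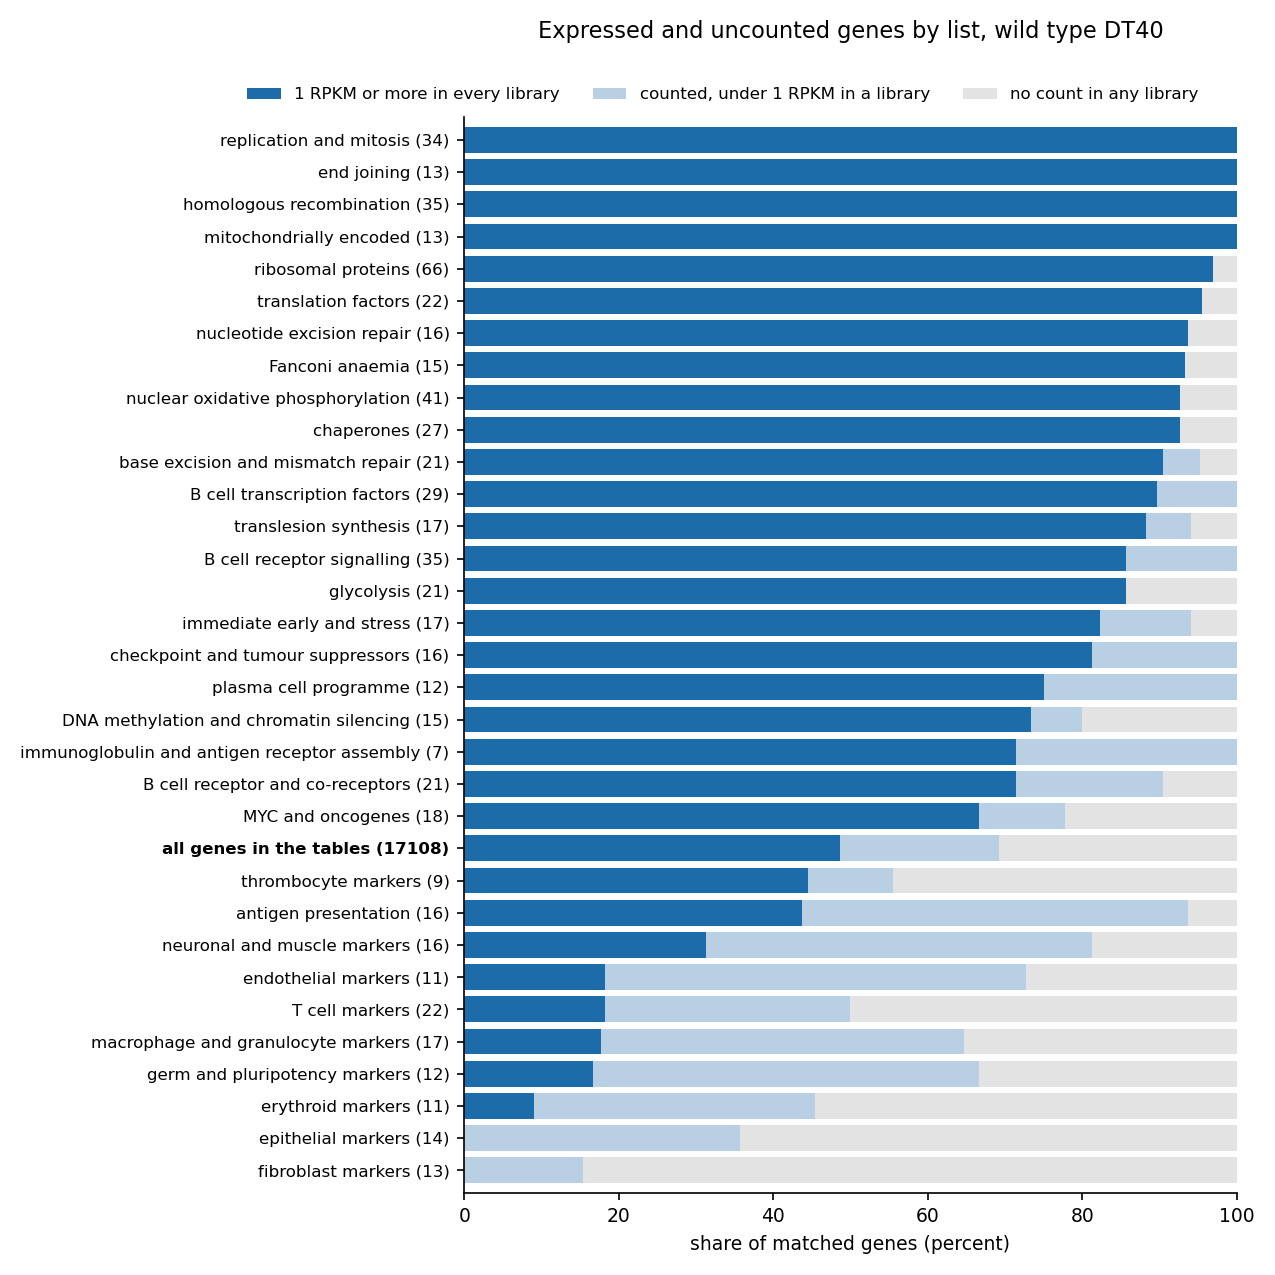
Share of the matched genes of each list, with their number in parentheses, that were at 1 RPKM or more in every wild type library, were counted but lower in a library, or had no count in any library. All genes in the tables (in bold) stood at 48.6% expressed; every repair and B cell list lies above that share, and all 9 lists of other cell types lie below it, with thrombocyte markers (4 of 9) close to it.

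DNA repair genes were expressed almost without exception. Over 6 repair lists, 110 of 116 matched genes (94.8%) were expressed, 2 were counted at a lower level and 4 had no count. The expressed share was 48.6% over all genes and 57.8% over protein-coding RefSeq genes. The median level of the matched repair genes was 16.0 RPKM. Of the 35 matched genes of homologous recombination, the pathway on which gene conversion draws, every one was expressed. The checkpoint kinase CHEK1 was highest with 183, 169 and 168 RPKM in replicates 1, 2 and 3. The subunits of the single strand binding protein RPA followed, RPA2 at 103 ± 3.39 and RPA3 at 92.9 ± 2.99 RPKM, beside SHFM1, a small partner of BRCA2, at 102 ± 7.31 RPKM (SD, n = 3).

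By mean, the lowest gene of homologous recombination was the helicase HELQ, at 3.68, 4.89 and 4.99 RPKM. Its range overlapped that of the next gene by mean, which was lower than HELQ in replicates 2 and 3. Their order is therefore not settled. CHEK1 exceeded the kinase that activates it, ATR, 16.4 ± 0.944-fold, and ATM, its counterpart at double strand breaks, 31.6 ± 2.85-fold (SD over 3 libraries).

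End joining genes were all expressed too, 13 of 13, at a lower median of 12.2 RPKM. PARP1, a sensor of DNA breaks, averaged 213 ± 5.59 RPKM, the ligase LIG3 65.3 ± 0.890 and RIF1, which limits the resection of breaks, 63.0 ± 0.557 RPKM (SD, n = 3). The subunits of the Ku ring were unequal: XRCC6 (Ku70) averaged 34.8 ± 1.77 RPKM and XRCC5 (Ku80) 12.4 ± 0.788, a ratio of 2.81 ± 0.272. PRKDC, the kinase that Ku recruits, averaged 4.10 ± 0.542 RPKM, and DCLRE1C (Artemis), the nuclease that opens hairpins, was the lowest of the list at 1.18, 1.14 and 1.13 RPKM.

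In base excision and mismatch repair, 19 of 21 matched genes were expressed. PCNA, the sliding clamp, averaged 542 ± 12.7 RPKM. UNG, the uracil glycosylase that acts on deaminated cytosines in immunoglobulin genes, had 248, 224 and 218 RPKM, 6.25 ± 0.784-fold more than MBD4 and 31.3 ± 2.49-fold more than TDG, other glycosylases of the list. The flap nuclease FEN1 averaged 131 ± 2.74 RPKM, and the mismatch sensor MSH6 80.6 ± 0.997 RPKM (SD, n = 3). LIG1, the replicative ligase, had no count, and the glycosylase NEIL2 had 4.

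Translesion polymerases differed widely in level. POLH (polymerase eta) had 147, 151 and 153 RPKM in replicates 1, 2 and 3. It exceeded REV1 22.3 ± 1.41-fold and POLK (polymerase kappa) 219 ± 16.4-fold (SD over 3 libraries). POLK had 125 counts in all, and counting error alone gives it a coefficient of variation of 16.4%. The ratio to POLK is therefore less precise than its SD. The symbols of the ubiquitin conjugating enzymes UBE2A and UBE2B stand on 1 row, at 100 ± 3.48 RPKM, and this level cannot be assigned to either of them. USP1, which removes ubiquitin from PCNA, averaged 95.3 ± 3.03 RPKM, POLD3 66.4 ± 1.83 and POLD2, another subunit of polymerase delta, had no count.

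The Fanconi anaemia list, whose proteins repair crosslinks between DNA strands, was expressed in 14 of 15 matched genes, led by FANCL (44.8 ± 2.06 RPKM), the ubiquitin ligase of the pathway, and FANCE (43.4 ± 2.92 RPKM). UBE2T, the conjugating enzyme that works with FANCL, had no count. Nucleotide excision repair was expressed in 15 of 16, led by the damage sensor DDB1 (119 ± 2.64 RPKM), GTF2H5 (100 ± 5.69) and XPA (82.0 ± 4.27 RPKM).

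Genes of replication and mitosis were expressed in full, 34 of 34, at a median of 112 RPKM. Beside them, 48.6% of all genes and 57.8% of protein-coding RefSeq genes were expressed. The mitotic kinases CDK1 (310 ± 21.4 RPKM) and PLK1 (248 ± 20.1), the ribonucleotide reductase subunit RRM2 (222 ± 3.21), the anaphase activator CDC20 (213 ± 23.7) and the helicase subunit MCM5 (209 ± 9.64 RPKM) led the list (SD, n = 3). Of the 32 with enough counts for a spread, 20 were highest in replicate 1 and 20 were lowest in replicate 3. Over all 5345 genes with enough counts, 2172 were highest in replicate 1 and 1802 lowest in replicate 3. Among D cyclins, which start the cell cycle, CCND3 exceeded CCND1 1.91 ± 0.145-fold and CCND2 2.83 ± 0.413-fold.

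MYC, the growth factor-responsive oncogene, was far more abundant than any listed B cell factor, with 879, 951 and 932 RPKM in replicates 1, 2 and 3 (921 ± 37.1, SD, n = 3, rank 95 of all genes). It exceeded its relative MYCL, at 9.55 RPKM, 97.3 ± 13.7-fold, and MYCN had no count. MAX, the partner through which MYC binds DNA, was also listed at 0, beside KIT and the microRNA gene MIR155.

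Of the genes that guard against cell death, BCL2L1 (BCL-XL) averaged 189 ± 20.1 RPKM and MCL1 40.7 ± 2.19 RPKM, while BCL2 had 27 counts in all. BCL2L1 exceeded MCL1 4.64 ± 0.245-fold in RPKM. Among checkpoint genes and tumour suppressors, 13 of 16 matched were expressed, against 48.6% of all genes and 57.8% of protein-coding RefSeq genes. BTG1 averaged 110 ± 16.1, CDKN2A 79.2 ± 5.60, CDKN2C 73.1 ± 4.62 and RBL1 39.8 ± 0.664 RPKM (SD, n = 3). CDKN1A (p21), an inhibitor of cyclin-dependent kinases, had 17 counts in all.

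Genes of antigen presentation were uneven in level. CD74, the invariant chain of MHC class II, averaged 402 ± 14.7 RPKM, and the endosomal reductase IFI30 167 ± 4.69, the protease CTSS 51.6 ± 3.53, CTSB 29.2 ± 2.09 and RFXAP, a regulator of class II genes, 13.2 ± 0.676 RPKM (SD, n = 3). Of 16 matched genes of the list 7 (43.8%) were expressed, a share near the 48.6% of all genes. Over protein-coding RefSeq genes alone the share was 57.8%. The MHC light chain B2M had 18 counts, the class I gene BF2 28, the class II gene BLB2 7, its activator CIITA 9 and the peptide transporter TAP1 1 count in all, and BLB3 had none. CD74 exceeded B2M 428 ± 62.6-fold in RPKM, a ratio that rests on the 18 counts of B2M. BLB3 lies on chromosome 16, where 17 of 43 protein-coding genes had no count. Whether reads of MHC genes were lost in mapping was not tested. The MHC genes BF1, BLB1, DMA and DMB1 were not analysed here.

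Markers of other cell types were mostly low or uncounted. Over 9 lists, 21 of 125 matched genes (16.8%) were expressed, 47 were counted at a lower level and 57 had no count. The expressed share was 48.6% over all genes and 57.8% over protein-coding RefSeq genes. The summed level of these markers was 852, 850 and 802 RPKM in replicates 1, 2 and 3, and a few genes supplied most of it. In bulk RNA, a few cells of another type and a low level in every cell cannot be told apart.

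Among T cell markers, the CD3 chain CD3D stood out with 187, 171 and 150 RPKM in replicates 1, 2 and 3. It exceeded CD3E, the chain with which it forms a complex in T cells (6.79 ± 1.62 RPKM), 25.6 ± 4.47-fold. CD8A averaged 3.11 ± 0.744 and CD247 3.08 ± 0.288 RPKM. The other 18 matched markers were under 1 RPKM in a library or uncounted, and 11 of them had no count: CD4, CD28, CTLA4, GATA3, TCF7, BCL11B, IL7R, IL2RA, UBASH3A, GZMA and PRF1. CD3D was thus the 1 T cell marker at a level near those of PAX5 and BTK.

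Of the macrophage and granulocyte markers, the oxidase subunit CYBB averaged 27.3 ± 4.11 RPKM, the integrin chain ITGB2 14.4 ± 0.466 and the protease MMP9 5.33 ± 0.644 RPKM (SD, n = 3). The oxidase subunit and the integrin chain are also known from B cells. MARCO, MRC1, C1QA, CEBPA, S100A9 and SPP1 had no count. In the erythroid list the transferrin receptor TFRC, which all dividing cells use, averaged 149 ± 5.53 RPKM and was the only expressed member, while HBAA, HBAD, HBE, HBZ, SLC4A1 and RHAG had no count. Of 9 thrombocyte markers 4 were expressed, among them SELP (12.7 RPKM), TUBB1 (7.52) and GP5 (1.71), and ITGB3, GP9, F13A1 and VWF had no count.

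The solid tissue lists were lower still. None of 13 fibroblast and none of 14 epithelial markers was expressed, and their summed levels were between 0.426 and 0.572 RPKM and between 0.493 and 0.802 RPKM over the libraries. The collagens COL1A1, COL3A1, COL5A1 and COL6A1, with DCN, LUM, POSTN, PDGFRA, PDGFRB, THY1 and ACTA2, had no count, nor had the keratins KRT5, KRT7, KRT8, KRT14, KRT18 and KRT19, the claudins CLDN1 and CLDN4, and GRHL2. KRT5, KRT7, KRT8 and KRT18 lie on chromosome 34, where 99 of 100 protein-coding genes had no count. The lack of counts for these 4 keratins is therefore not read as absence. Of 11 endothelial markers, PECAM1 (1.98 RPKM) and EGFL7 (1.41 RPKM) were expressed and CDH5, KDR and EMCN had no count.

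A few neuronal and germ line genes were exceptions to the low background. STMN2, a microtubule regulator of neurons, had 266, 270 and 261 RPKM in replicates 1, 2 and 3, and the tubulin TUBB3 averaged 125 ± 9.81 RPKM. MAP2 averaged 11.5 ± 0.263, SYT1 2.16 ± 0.163 and GFAP 2.12 ± 0.114 RPKM, while the muscle genes MYOG, ACTC1 and TNNT2 had no count. The RNA binding protein LIN28B (7.23 ± 0.148 RPKM) and the factor SALL4 (5.21 ± 0.562 RPKM) were the expressed members of the germ and pluripotency list (SD, n = 3). NANOG, DAZL, DDX4 and PIWIL1 of that list had no count.

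The metabolic and folding machinery was abundant. The median SD of log2 RPKM over the libraries was 0.03 for glycolytic genes and for chaperones and 0.07 for nuclear genes of oxidative phosphorylation, against 0.07 over all genes with enough counts. These values were not matched for level, and the spread was smaller at high levels. The median levels of these 3 lists were 128, 321 and 148 RPKM. Glycolytic genes were expressed in 18 of 21 cases, led by PGAM1 at 2032, 2042 and 2041 RPKM, GAPDH at 2036 ± 36.3, ENO1 at 1615 ± 65.7, PKM at 1519 ± 14.6 and ALDOC at 967 ± 24.1 RPKM (SD, n = 3). The lactate dehydrogenase chain LDHA exceeded LDHB 1.92 ± 0.119-fold. Chaperones were expressed in 25 of 27 cases and nuclear genes of oxidative phosphorylation in 38 of 41, with CYCS (699 ± 32.4 RPKM) first among the respiratory genes. Beside these 3 lists, 48.6% of all genes and 57.8% of protein-coding RefSeq genes were expressed.

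The mitochondrial chaperonin HSPD1 and its partner HSPE1 kept 1 ratio in all libraries, 0.930, 0.934 and 0.935 in RPKM. Nuclear oxidative phosphorylation genes with a count had a median of 154, 160 and 156 RPKM in replicates 1, 2 and 3, and the mitochondrially encoded median was 57.5, 44.9 and 48.4-fold higher. The nuclear medians were lowest in replicate 1, where the mitochondrial ones were highest. Of these nuclear genes 22 were lowest in replicate 1 and 28 highest in replicate 2, of 38. Over all 5345 genes with enough counts, 1915 were lowest in replicate 1 and 1653 highest in replicate 2.

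Chromatin and stress genes were in between. The methylation reader UHRF1 averaged 195 ± 5.79 RPKM, the deacetylase HDAC2 175 ± 6.48 and CBX3, a heterochromatin protein, 160 ± 5.57 RPKM, with SUZ12 and EED of the Polycomb complex at 94.9 and 49.1 RPKM. DNMT1, the maintenance methyltransferase that UHRF1 guides, was listed at 0, as were TRIM28 and CBX5. ATF4, the factor of the amino acid response, averaged 637 ± 53.5 RPKM, and its target ASNS had 177 RPKM in replicate 1 against 246 and 238 in replicates 2 and 3.

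Genes that every dividing cell uses were among the 5266 without a count. In 5 lists of housekeeping genes (ribosomal proteins, translation factors, chaperones, nuclear oxidative phosphorylation and glycolysis), 11 of 177 had no count, among them the glycolytic HK2 and PFKM, the chaperones CCT3 and CALR, EEF1A2, the respiratory genes SDHC and ATP5B, RPS26 and the second RPL34 row. HK2 and EEF1A2 are tissue-restricted in mammals. CCT3, an obligate subunit of the ring in which the other chaperonin subunits were at 109 to 683 RPKM, is not. No count is therefore given here as listed at 0, and not as a silent gene.

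Nearly all genes of a few chromosomes were uncounted, although most uncounted genes lay elsewhere. Chromosomes were taken from the RefSeq gene table for the assembly GRCg7b, whose build differs from galGal4, the build named for the counts, and which served only to group genes. On chromosomes 29, 30, 31, 33, 34, 36, 38 and 39 together, 185 of 186 protein-coding genes (99.5%) had no count. On the other numbered chromosomes and Z, 2506 of 12711 (19.7%) had none, with 7.61% to 33.8% on the 28 of these with at least 100 genes. DNMT1 and CALR lie on chromosome 30, LIG1 on chromosome 31, and ATP5B, PFKM, RPS26, CBX5, KRT5, KRT7, KRT8 and KRT18 on chromosome 34. CCT3 and SDHC lie on chromosome 25 and MAX on chromosome 5, where most genes had counts.

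**Figure D4:**
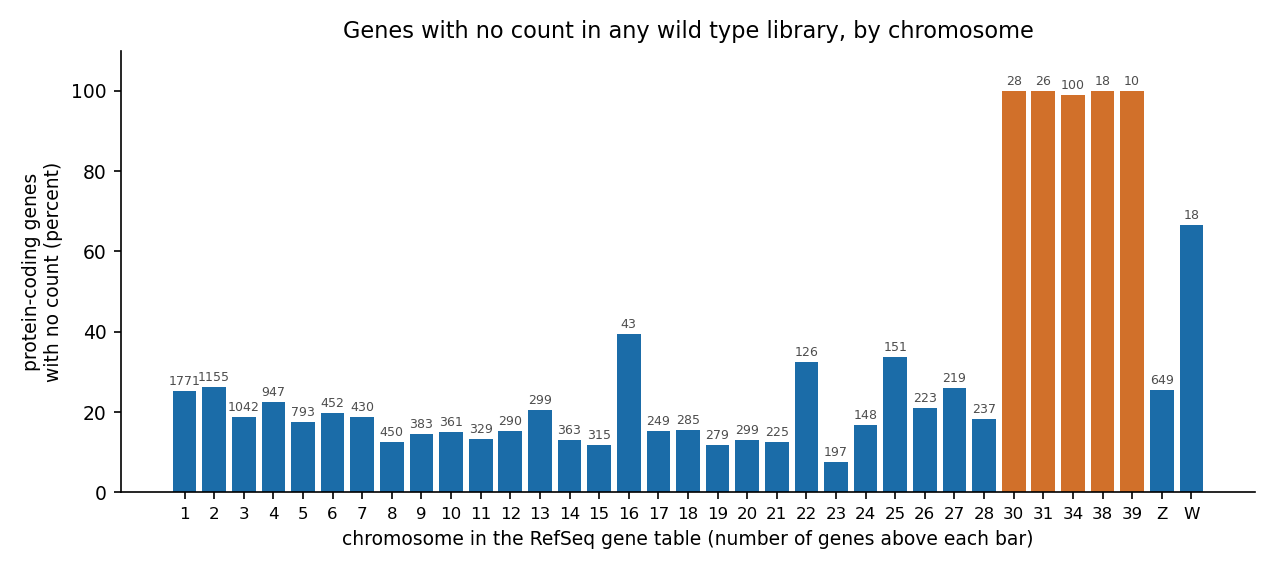
Share of protein-coding genes with no count in any of the 3 wild type libraries, by chromosome of the GRCg7b gene table, for chromosomes with at least 10 genes; the number of genes stands above each bar. Chromosomes 30, 31, 34, 38 and 39 (orange) reach at least 99%, while chromosome 23 stands at 7.61%.

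MicroRNA genes were hardly sampled: of 433 rows, 102 had a count and 12 had at least 30. MIR1650 had 505 counts in all, MIR1683 157 and MIR221 141; these genes were named after their values were seen. The counts may come from precursors or host transcripts, which cannot be told apart from mature microRNAs in these libraries.

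The spread between the 3 cultures was small. The common biological coefficient of variation, the spread beyond counting error estimated by edgeR over 8824 genes, was 6.05%. Without replicate 1 it was 3.84%, without replicate 2 6.68% and without replicate 3 6.83%. By this measure replicates 2 and 3 were closer to each other than either was to replicate 1. These differences were not tested. Over the 967 genes at 100 RPKM or more, the median coefficient of variation was 3.78% where counting error alone gives 1.57%. Between 10 and 100 RPKM it was 5.41% against 3.58%, and between 1 and 10 RPKM 10.1% against 8.33%. The median was thus nearer to counting error at low levels than at high levels, and above it in each class. An SD of 3 values is more often below than above the true SD, so these medians understate the excess over counting error. Of the 2883 genes between 1 and 10 RPKM, 1734 had a coefficient above that of counting error.

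The spread of single genes was compared over the 5345 genes that averaged 10 RPKM or more and had at least 300 counts, where the median SD of log2 RPKM was 0.07. Among the 200 with the largest SD, 125 were highest in replicate 1, 50 in replicate 2 and 25 in replicate 3; over all 5345 these numbers were 2172, 1653 and 1520. The most variable gene with a symbol was AMICA1 (JAML), a junction adhesion molecule of leukocytes, with 24.6, 14.9 and 12.5 RPKM in replicates 1, 2 and 3. TLE3, a corepressor, had 22.9, 13.9 and 14.0 RPKM, the lysophosphatidic acid receptor LPAR5 63.7, 37.9 and 43.2 RPKM, and MYBL1, a MYB family factor, 90.3, 58.4 and 62.8 RPKM. In each of these the largest of 3 values was that of replicate 1.

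The other variable genes that were highest in replicate 1 were LOC101751781, LOC378902, LRRC3C, TMEM216, PQLC3, BTBD19, TFEB, a factor of lysosome genes, and C10H15orf61, with ratios of the highest to the lowest library between 1.48 (TFEB) and 1.82 (LOC101751781). A smaller group went the other way. CHAC1, a glutathione-degrading enzyme of the amino acid response, had 35.2 RPKM in replicate 1 against 57.5 and 54.6 in replicates 2 and 3, and MTHFD2, a mitochondrial folate enzyme, had 83.4 against 121 and 125 RPKM. SMYD3, a methyltransferase, was 9.20 and 9.61 RPKM in replicates 1 and 2 and 14.7 RPKM in replicate 3.

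The steadiest named genes were FLII, a gelsolin family protein, at 44.3, 44.3 and 44.4 RPKM, then ENOPH1, INTS1, TERF2, RP11-449H3.3, REXO1, FAM208A, PGAM1, TSR1 and MORN4, whose highest and lowest libraries were within 1.01-fold. With counting error alone FLII would be given a coefficient of variation of 2.12%, against 0.122% measured; these genes were chosen as the lowest of 5345 values.

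Genes without a symbol were 3101 of 17108, of which 1296 had a count and 685 were expressed. Some short ones were abundant and uneven, and were singled out after their values were seen. ENSGALG00000026592, of 150 bases, had 14210, 13952 and 5517 RPKM in replicates 1, 2 and 3 and ranked 5th of all genes. ENSGALG00000028371, of 70 bases, had 3396, 3575 and 1149 RPKM. Both were low in replicate 3 and close to each other in replicates 1 and 2.

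Genes of at most 160 bases took 0.272%, 0.272% and 0.127% of the counts in replicates 1, 2 and 3. Without ENSGALG00000026592 and ENSGALG00000028371, which held most of those counts, the share was 0.0385%, 0.0399% and 0.0372%, so that the low share in replicate 3 came from them. The median SD of log2 RPKM of the 13 short genes with enough counts was 0.24. It was 0.06 for genes longer than 4000 bases, and the share of counts of every longer class stayed within a narrow range over the libraries. The sources used here do not name these short genes.

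**Figure D5:**
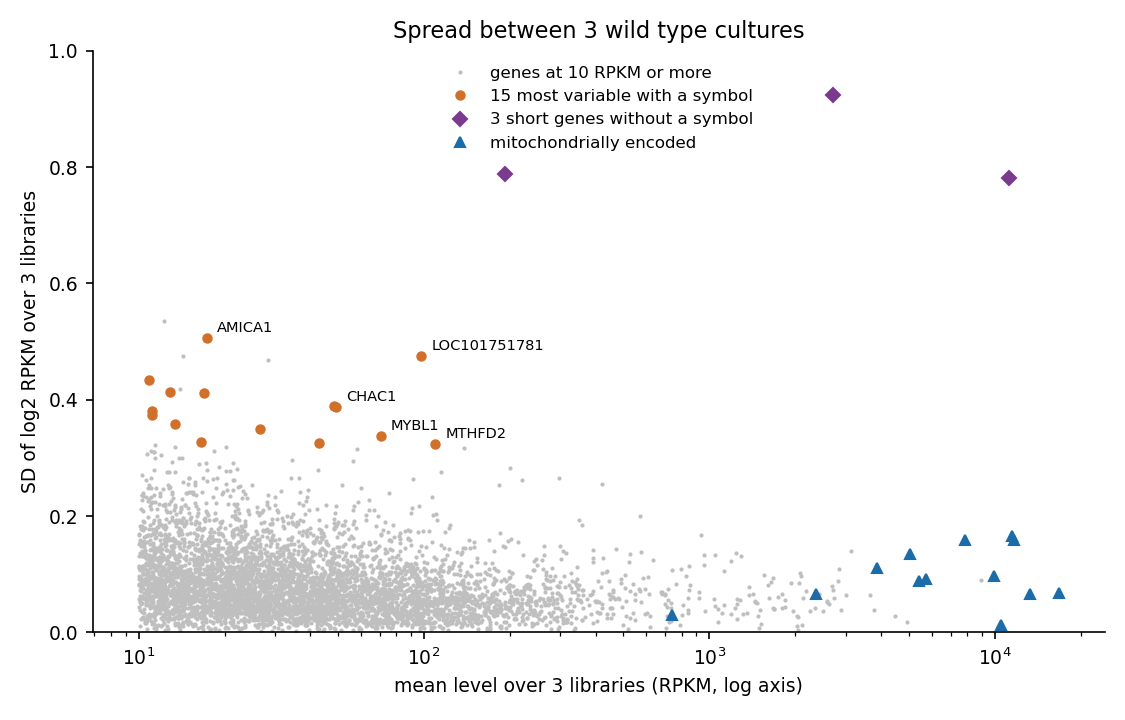
SD of log2 RPKM over the 3 wild type libraries against the mean level in RPKM on a log axis, for genes that average 10 RPKM or more and have at least 300 counts. Most lie near the median SD of 0.07; the 15 most variable genes with a symbol lie between 0.32 (MTHFD2) and 0.51 (AMICA1), and 3 short genes without a symbol lie highest.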

How the data were processed

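The authors deposited 2 tables of 17108 Ensembl genes: raw counts, and values read as RPKM. Each deposited RPKM value equals the count divided by 1 factor per library and a whole-number gene length (100% of lengths whole within 1e-06 bases), so both tables carry the same measurement. Only the wild type columns were used, and 0 columns of values were unmatched to a sample. The submitters' processing notes name the build galGal4 and the tools limma, edgeR, Subread 1.5.0, TopHat2 2.1.0 and bcl2fastq 1.8.4, without their roles. The annotation and the use of strand are not given in the sources used here, so reads of overlapping or antisense genes cannot be told apart.

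The genotype label gave the group, and the titles gave the replicate numbers. Means and SD are over 3 cultures, log2 spread is the SD of log2 RPKM, and counting error is Poisson. The common biological coefficient of variation was estimated with edgeR 4.0.16 in R 4.3.3 (filterByExpr, TMM factors 0.997 to 1.00, intercept only); DESeq2 1.42.0 size factors, TPM (RPKM rescaled to a common sum) and other cutoffs were alternatives. This step was tested on simulated data. Tables were handled in Python 3.11.15 with pandas 2.3.3 and numpy 2.4.6, and exact binomial intervals came from scipy 1.17.1.

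Members and 31 lists were chosen with earlier results of these data known. Of 687 list entries, 586 were matched to a row by symbol, 13 of them through the RefSeq name of the row's NCBI identifier where the table's symbol is a placeholder, and 4 matched more than 1 row, of which the row with most counts was taken. Of these genes, 415 of 578 were expressed. NCBI identifiers were found in the RefSeq table for 13400 of 14007 rows with a symbol.

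Named genes are the 20 highest by RPKM and the 10 largest by share of counts, all mitochondrially encoded genes, all matched members of the B cell transcription factor, assembly, receptor and plasma cell lists, in each other list the 5 highest and all without a count, for other cell types also all expressed, and the 15 most variable and 10 steadiest genes with a symbol, at least 10 RPKM and at least 300 counts. Genes named beyond this rule were chosen after their values were seen: LYN, SYK, FYN, LCK, SRC, BLK, PLCG1, PLCG2, HELQ, ATR, ATM, XRCC5, PRKDC, DCLRE1C, MBD4, TDG, NEIL2, REV1, POLK, CCND1, CCND2, CCND3, MYCL, BCL2, CDKN1A, B2M, BF2, BLB2, CIITA, TAP1, LDHA and LDHB. Some genes that the rule names are not reported here.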

Additional observations from a re-analysis of the deposited data

How the results depend on the processing

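Genes expressed numbered 8736 at a limit of 0.5 RPKM, 7722 at 2 RPKM, 8585 with TPM and 8719 at 10 counts in every library, and 8363 to 8391 with 1 replicate left out. List members expressed numbered 422 and 400 at 0.5 and 2 RPKM and 415 to 419 with 1 replicate left out. Genes with no count were 6368 if up to 3 counts over the libraries were taken as none, and 5459 to 5648 with 1 replicate left out. The mitochondrial share moved to 16.4% as a share of summed RPKM, the share of ribosomal proteins to 15.8% as a share of summed RPKM and to 8.27% with mitochondrial counts left out of the total, and the share of the top 10 to 16.9%; a share of counts grows with gene length, which a share of summed RPKM takes out. With 1 replicate left out the mitochondrial, ribosomal protein and top 10 shares of counts were 9.34% to 9.90%, 7.33% to 7.59% and 10.7% to 11.1%. The biological coefficient of variation was 6.05% with DESeq2 size factors, 6.08% with library totals only, 6.09% over all genes with a count, 6.04% over genes averaging 1 RPKM or more, and 3.84% to 6.83% with 1 replicate left out. No paired analysis was possible because 1 group was described and no test was run. Depth limits the low genes: 1102 genes had 1 to 3 counts in all, and 3 counts correspond to 0.145 to 0.333 CPM in a single library.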
